A study of Homo sapiens with 54 samples.

Results

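The 4 cycling ENZR tumours were the enzalutamide-resistant LNCaP xenografts with the strongest expression of division genes, and they were chosen by a measured value. Within the sample group ENZR, tumours were ranked by a division score, the mean log2(rescaled TPM + 1) of MKI67, TOP2A, BIRC5 and UBE2C, and the highest 4 of the 14 retained ENZR tumours were taken, out of 54 tumours in the series. They came from mice 75, 104, 94 and 100 and were compared with all 10 CRPC tumours, to ask whether dividing tumours that relapsed on the drug had the expression of castration-resistant tumours that never received it. Every tumour grew from LNCaP clone FGC cells, an androgen-sensitive human prostate cancer line, under the flank skin of its own male NOD-SCID mouse, a strain without functional T and B cells. The mice were obtained at 5 to 6 weeks of age. Castration was done at about 200 mm3, and CRPC tumours were taken when serum PSA was back at its level before castration or the tumour reached 1000 mm3. ENZR mice were castrated in the same way, received enzalutamide by gavage at 10 mg/kg on 5 days a week from the first PSA rise, and were sampled on the drug at PSA recurrence or 1000 mm3. The remaining groups were ENZS (12 tumours, castrated, on enzalutamide, at the second PSA nadir), POST-CX (8, a week after castration) and PRE-CX (9, mock surgery, testes intact). ENZR mouse 87 and POST-CX mouse 91 were left out, because human genes held 12.1% and 27.9% of their TPM sum, and keeping them in the fit gave the same count of 8 called genes. All groups derive from 1 cell line, so the tumours differ as hosts and growths and not as patients. Bulk RNA was sequenced from each tumour, and in such samples fewer cells of a type and less RNA per cell cannot be told apart.

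Androgens drive growth of the luminal prostate and switch on genes such as KLK3, the gene of PSA. Castration removes the testicular hormone, and enzalutamide blocks the androgen signal inside the cell. Prostate tumours that regrow after either step often regain part of the androgen programme. Serum PSA is read as an output of both tumour mass and androgen signalling.

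The division scores of the chosen tumours were 4.91 (mouse 75), 4.83 (mouse 104), 4.20 (mouse 94) and 3.92 (mouse 100). The first tumour outside the set, mouse 72, had 3.61, so the step at the boundary was small. The 10 other ENZR tumours had scores from 0.639 to 3.61, the ENZS tumours from 0.414 to 3.93 and the CRPC tumours from 3.77 to 5.29. The 4 tumours therefore lay inside the CRPC range, and the same 4 ranked highest with the deposited values before rescaling. MKI67, the proliferation antigen, was at 11.5, 13.1, 6.43 and 5.70 rescaled TPM in mice 75, 104, 94 and 100, against 3.21 to 13.4 in CRPC. TOP2A, a DNA topoisomerase of dividing cells, was at 26.5, 27.6, 21.5 and 16.6 rescaled TPM, against 10.7 to 37.2. Of the 60 mitosis and spindle genes the median log2 difference from CRPC was -0.15 in the cycling ENZR tumours, -1.74 in the other ENZR and -1.96 in ENZS. These values follow from the choice of tumours and are a description only.

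**Figure D1:**
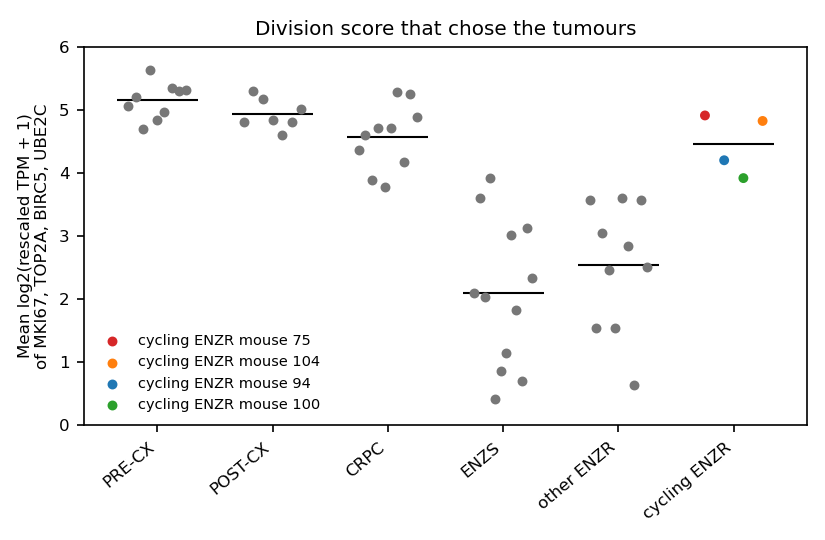
Division score of each tumour, as mean log2(rescaled TPM + 1) of MKI67, TOP2A, BIRC5 and UBE2C (vertical axis), in 6 groups; points are tumours, coloured by mouse for the 4 chosen ones, and bars are group means. The 4 chosen tumours sit between 3.92 and 4.91, within the CRPC range of 3.77 to 5.29, and all other ENZR tumours lie at 3.61 or lower.

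The tumours kept the luminal prostate character of the cell line. KRT8 and KRT18, the luminal keratins, were at 250 to 350 and 329 to 381 rescaled TPM in the 4 tumours, with every value inside the CRPC range. FOXA1, a pioneer factor that opens chromatin in luminal prostate cells, was at 181, 306, 215 and 212 rescaled TPM (mice 75, 104, 94 and 100), also inside the CRPC range of 171 to 327. CHGA, the neuroendocrine marker chromogranin A, was listed at 0 in all 4 and did not pass the filter. Of 18 neuroendocrine genes 4 passed the filter, with medians of 0.05, -0.06, 0.81 and -0.12 in mice 75, 104, 94 and 100. SCGN, the member with the smallest p, was low, at 0.0843, 0.0444, 2.58 and 0.672 rescaled TPM against 0.0722 to 0.246 in CRPC. Its log2 difference was 0.50 (adjusted p by limma = 0.467), beside 0.45 in the other ENZR. ENO2 in mouse 94 was at 175 rescaled TPM, above the highest CRPC tumour at 162. Mouse 94 thus stood apart in this list.

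Outside the division genes the cycling ENZR tumours differed from CRPC in few genes. The rule for a call was a Benjamini-Hochberg adjusted p under 0.05 from limma together with a log2 difference of 1 or more, up or down. Of 18423 genes tested 8 were called (0.0434%), 7 higher (0.038%) and 1 lower (0.00543%). The same rule called 438 genes in the other ENZR tumours against CRPC (2.38%), 317 higher (1.72%) and 121 lower (0.657%), and 405 in ENZS (2.2%), 281 higher (1.53%) and 124 lower (0.673%). These 3 comparisons share the CRPC tumours, and the difference between their counts was not tested. The cycling tumours were chosen for a high division score and lay inside the CRPC range of that score, while the other ENZR tumours lay under it. Genes outside the division lists that follow division are tied to this choice, so part of the contrast in counts may be set by it. With 4 tumours the cycling comparison was less precise, at a median SE of 0.184 on the log2 scale against 0.139 and 0.133. Sizes alone, whatever the p, showed 202 genes at a log2 difference of 1 or more in the cycling tumours, 475 in the other ENZR and 431 in ENZS. At an unadjusted p under 0.05 there were 2074 genes in the cycling comparison, and 22 passed the adjusted threshold at any size.

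The count of 8 depended on the fit. A fit of the 4 and the 10 tumours alone called 0 genes (limma, with 1985 at an unadjusted p under 0.05). Leaving out a cycling tumour raised the count, to 18 without mouse 100, 26 without mouse 104 and 19 without mouse 75, while leaving out CRPC mouse 43 left 4. Taking all 14 ENZR tumours with the division score as a covariate called 21 genes, of which 1 (APCDD1) was among the 8. The split of 7 higher and 1 lower became 6 and 3 with each tumour centred on its median, and 5 and 0 with the deposited values. A looser description without a fit was the absence of overlap, in which all 4 tumours lay above all 10 CRPC tumours in 95 genes (0.516%) and below all 10 in 65 (0.353%). The second number became 101 with each tumour centred.

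The highest of the called genes by size was APCDD1, which encodes a membrane inhibitor of Wnt signalling (chromosome 18, 10454635 to 10489949, GRCh38). Its level was 10.3, 108, 56.8 and 89.1 rescaled TPM in mice 75, 104, 94 and 100. The 10 CRPC tumours ranged from 4.71 to 22.1, with a median of 9.05. Mouse 75 thus stayed at the CRPC level, and the other 3 tumours exceeded every CRPC tumour. The log2 difference was 2.42 (SE 0.52, adjusted p = 0.0267). The call was lost without mouse 104 (adjusted p = 0.101), without mouse 94 (adjusted p = 0.0717), without mouse 100 (adjusted p = 0.0779) and without CRPC mouse 43 (adjusted p = 0.0542). Over the alternatives the limma adjusted p ran from 0.00214 to 0.106. In the other ENZR and ENZS tumours APCDD1 was also higher than in CRPC, by 1.27 and 1.83 on the log2 scale. It was the only called member of the 10 tested Wnt feedback and receptor genes, beside 0.038% of all genes called higher. The median difference of the 10 was 0.48 beside 0.02 over all genes. In the other ENZR 2 of the 10 were called higher, beside 1.72% of all genes, and the list median was 0.53 beside 0.24. In ENZS 3 were called higher, beside 1.53%, and the list median was 0.67 beside 0.21.

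USP54, a member of the ubiquitin-specific protease family on chromosome 10, was at 642, 409, 651 and 417 rescaled TPM in mice 75, 104, 94 and 100. CRPC tumours had 130 to 274, with a median of 222. All 4 tumours stood above all 10, and the log2 difference was 1.38 (SE 0.25, adjusted p = 0.00807). USP54 was at 218 to 471 rescaled TPM in the other ENZR tumours, with 8 of 10 above the highest CRPC tumour and a log2 difference of 0.70 (adjusted p = 0.0034 by limma), and in ENZS the difference was 0.44. The gene stayed called in 23 of 25 alternatives, where the adjusted p from limma ran from 0.000552 to 0.0529. CCDC14, which encodes a coiled-coil protein of the centrosome region, was at 77.2, 95.4, 266 and 97.6 rescaled TPM, against 41.6 to 59.2 in CRPC. Again no tumour overlapped, although mouse 94 was far above the other 3. The log2 difference of 1.25 (SE 0.20, adjusted p = 0.000567) dropped to 0.86 without mouse 94, under the size threshold. CCDC14 was at 55.2 to 105 rescaled TPM in the other ENZR tumours, with 9 of 10 above the highest CRPC tumour and a log2 difference of 0.59 (adjusted p = 0.00168 by limma), and in ENZS the difference was 0.39. Both genes were thus above CRPC in most other ENZR tumours too, by less than the size set for a call.

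KIAA0040 was at 31.5, 11.1, 11.1 and 8.72 rescaled TPM in mice 75, 104, 94 and 100, and CRPC tumours had 3.62 to 9.37. All but that of mouse 100 were above the CRPC range. The log2 difference was 1.24 (SE 0.26, adjusted p = 0.0219), and without mouse 75 it was 0.85 (adjusted p = 0.214). KIAA0040 differed from CRPC by 0.36 in the other ENZR and 0.63 in ENZS, under the size threshold. TMEM205, which encodes a transmembrane protein linked to cisplatin resistance, was the only gene called lower. It was at 101, 56.1, 194 and 145 rescaled TPM, against 198 to 291 in CRPC. All 4 tumours were below all 10, with mouse 94 close to the lowest CRPC tumour, and the log2 difference was -1.01 (SE 0.19, adjusted p = 0.0111). The call was lost without mouse 104 (log2 difference -0.68, adjusted p = 0.0967) and, by size alone, without mouse 75, CRPC mouse 36 or CRPC mouse 89, at -0.96, -0.98 and -0.97. In the other ENZR and ENZS tumours TMEM205 differed from CRPC by 0.18 and 0.09 and was not called.

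The remaining called genes were of low level and stood under the minimum of 5 rescaled TPM set for naming, so they were singled out after their values were seen. CHRDL1, which encodes a secreted antagonist of bone morphogenetic proteins, was at 0.790, 2.81, 1.41 and 3.89 rescaled TPM, against 0.0825 to 0.534 in CRPC, with a log2 difference of 1.21 (SE 0.27, adjusted p = 0.0325). AC006230.1 and AL929091.1, known by clone names, differed by 1.07 and 1.02. CHRDL1 stayed called in 13, AC006230.1 in 17 and AL929091.1 in 16 of 25 alternatives.

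**Figure D2:**
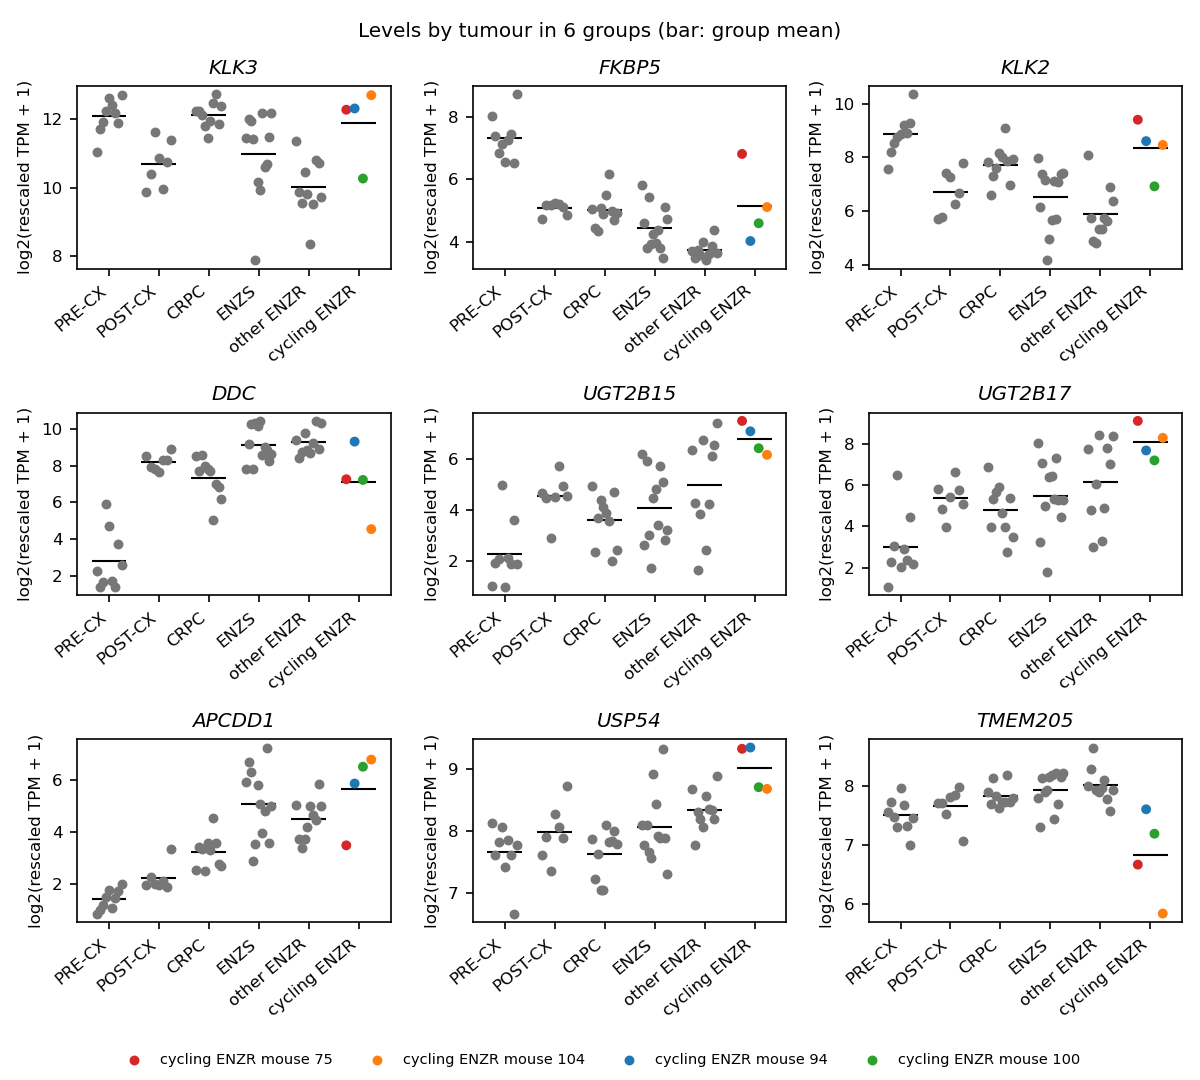
Level of 9 genes in each tumour as log2(rescaled TPM + 1) (vertical axes, each scaled to its gene), in 6 groups; points are tumours, coloured by mouse for the 4 cycling ENZR tumours, and bars are group means. KLK3 of 3 of the 4 sits at the CRPC level, UGT2B15, UGT2B17 and USP54 of all 4 lie above every CRPC tumour, TMEM205 of all 4 lies below, and DDC spreads from 22.5 to 628 rescaled TPM.

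By their list median the androgen-induced genes parted the 4 tumours into pairs, in the order of the division score. The median log2 difference from the CRPC mean was 0.15 in both mouse 75 and mouse 104, and -0.31 in mouse 94 and -0.32 in mouse 100. This pairing was not particular to the list. Fatty acid synthesis genes had medians of 0.52, 0.09, -0.22 and -0.36 in mice 75, 104, 94 and 100, whereas the p53 targets did not follow the pairs. KLK3 and KLK2 did not follow them either. Over the 4 tumours the median of the androgen-induced genes was -0.07 beside 0.02 over all genes, and 6 of the 31 had an unadjusted p under 0.05 (limma). None of the 31 was called, which at a share of 0.0434% over all genes says nothing about these members. In the other ENZR tumours 6 of the 31 were called lower, beside 0.657% over all genes, with a median of -0.31, and in ENZS 3 were called lower, beside 0.673%, with a median of -0.06. KLK3, which encodes PSA, was at 4991, 6704, 5120 and 1231 rescaled TPM in mice 75, 104, 94 and 100. CRPC tumours had 2825 to 6828, with a median of 4690. Mice 75, 104 and 94 were inside that range and mouse 100 was below it. The log2 difference was -0.24 (SE 0.49, 95% interval -1.22 to 0.73, adjusted p by limma = 0.906), which leaves room for a 2-fold fall, and it was 0.30 without mouse 100. The other ENZR tumours had 323 to 2643 rescaled TPM, a log2 difference of -2.12 from CRPC (SE 0.37, adjusted p = 2.39e-05).

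KLK2, the neighbouring kallikrein gene, was at 677, 353, 389 and 120 rescaled TPM, with CRPC between 94.9 and 544 (log2 difference 0.61, SE 0.53, adjusted p by limma = 0.716, and 1.09 without mouse 100). FKBP5, a steroid hormone co-chaperone and a sensitive androgen target, was at 112, 33.7, 15.3 and 23.2, with CRPC between 19.4 and 70.6. Mouse 75 was above every CRPC tumour and mouse 94 below every one, and the log2 difference of 0.13 (95% interval -0.57 to 0.83) became -0.43 without mouse 75 and 0.50 without mouse 94. TMPRSS2, a surface protease gene, differed by -0.18 (95% interval -0.94 to 0.59, and 0.07 without mouse 94) and was not called, whereas in the other ENZR tumours it was called lower at -1.02. Of the androgen-induced list ADAMTS1, a secreted metalloprotease gene, had the smallest p, at 38.7, 144, 19.5 and 62.3 rescaled TPM against 54.8 to 219 in CRPC (log2 difference -1.28, SE 0.48, adjusted p by limma = 0.282).

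The sizes that stood out most belonged to UGT2B15 and UGT2B17, enzymes that attach glucuronic acid to androgens and so inactivate them. UGT2B15 was at 178, 70.1, 134 and 84.0 rescaled TPM in mice 75, 104, 94 and 100. CRPC tumours had 2.96 to 29.2, with a median of 12.7. UGT2B17 was at 547, 310, 203 and 145 rescaled TPM. CRPC tumours had 5.82 to 117, with a median of 31.5. For both genes all 4 tumours lay above all 10, and mouse 75 was the highest. UGT2B15 was 3.19 above CRPC on the log2 scale with an SE of 0.77 and UGT2B17 was 3.26 above with an SE of 0.88, but their adjusted p of 0.0762 and 0.113 from limma left both uncalled. With a pseudocount of 5 in place of 1 UGT2B15 was called (log2 difference 2.77, adjusted p = 0.0307), and over all alternatives its difference stayed between 1.94 and 3.40 and that of UGT2B17 between 2.00 and 3.55. The other ENZR tumours reached 168 rescaled TPM for UGT2B15 and 335 for UGT2B17 and started at 2.09 and 7.13, a range that overlaps both the CRPC and the cycling tumours. For each gene 5 of the 10 other ENZR tumours were above the highest CRPC tumour. Their log2 differences from CRPC were 1.37 and 1.33 (adjusted p = 0.0539 and 0.0991 by limma), and in ENZS 0.49 and 0.67. A rise over CRPC was thus seen in part of the other ENZR tumours too. The genes are close copies of one another on chromosome 4, and estimated counts can be shared between copies, so the split between them is uncertain. Further members of the family, added here after their values were seen, varied more. UGT2B10 was at 13.2, 12.0, 4.19 and 2.25 rescaled TPM against 0.0854 to 2.86 in CRPC, whereas UGT2B11 was at 143, 5.96, 10.7 and 0.971 against 0.502 to 20.5, with mouse 75 alone above the range.

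The promoters of KLK3 and UGT2B15 are shown because the first gene was at the CRPC level in most of the 4 tumours and the second above it in all of them. Each runs from 250 bases before to 50 after the start of the gene, 5′ to 3′ on the gene's strand, from RefSeq on GRCh38.p14, at chr19:50854665-50854964 (plus strand) for KLK3 and chr4:68670603-68670902 (minus strand) for UGT2B15. The half-site AGAACA of the androgen response element, searched on both strands, is in capitals.
KLK3: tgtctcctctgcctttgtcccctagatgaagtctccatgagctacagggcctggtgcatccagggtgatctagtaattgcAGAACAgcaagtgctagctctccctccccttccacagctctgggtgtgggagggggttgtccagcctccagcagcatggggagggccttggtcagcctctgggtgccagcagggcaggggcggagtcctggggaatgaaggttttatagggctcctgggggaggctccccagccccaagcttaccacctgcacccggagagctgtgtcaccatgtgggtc
UGT2B15: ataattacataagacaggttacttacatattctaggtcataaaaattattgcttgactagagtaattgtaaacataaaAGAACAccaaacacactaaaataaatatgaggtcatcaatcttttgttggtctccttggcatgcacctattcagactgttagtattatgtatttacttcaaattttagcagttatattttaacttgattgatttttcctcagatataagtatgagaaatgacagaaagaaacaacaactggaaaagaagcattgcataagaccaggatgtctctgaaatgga
The match starts 170 bases before the start of KLK3 and 172 before that of UGT2B15. Of 35116 promoters of this length 14.8% held the half-site, so a match is common and says nothing about binding in these tumours.

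The genes raised after castration showed the widest spread among the 4 tumours. A list of 8 such genes was chosen from earlier results of these data, so its direction is not independent evidence. In the cycling tumours their median difference from CRPC was 0.65 and none was called, where 0.0434% of all genes were. In the other ENZR tumours the median was 1.65 with 5 called higher, beside 1.72% of all genes, and in ENZS 1.42 with 5 called higher, beside 1.53%. DDC, the decarboxylase that makes dopamine and serotonin, was at 152, 22.5, 628 and 148 rescaled TPM in mice 75, 104, 94 and 100. CRPC tumours had 32.4 to 386. Mouse 94 was above that range, mouse 104 below it and the other 2 inside it, with a log2 difference of -0.25 (95% interval -1.54 to 1.03). Single tumours turned this value, which was 0.59 without mouse 104 and -0.99 without mouse 94. In the other ENZR tumours DDC was at 335 to 1368 rescaled TPM and was called higher than CRPC, at 1.93 on the log2 scale (adjusted p = 0.00165 by limma).

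AOC1, which encodes a diamine oxidase, was at 7.92, 2.82, 25.1 and 61.6 rescaled TPM in the 4 tumours, each inside the CRPC range of 2.29 to 99.8. Its log2 difference was -0.74 (95% interval -2.17 to 0.68), beside 2.44 in the other ENZR tumours, and was -1.42 without mouse 100 and -0.07 without mouse 104. ATP1B1, a sodium pump subunit gene, was at 80.1, 296, 2180 and 1442 rescaled TPM, so that mouse 75 was below and mice 94 and 100 above the CRPC range of 251 to 842, and its log2 difference of 0.40 became -0.29 without mouse 94. OPRK1, the kappa opioid receptor gene, was at 5.02, 93.3, 39.8 and 115, and mouse 75 was again below the CRPC range of 11.5 to 129; its log2 difference of -0.52 became 0.40 without mouse 75 and -1.02 without mouse 100.

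NR3C1, the glucocorticoid receptor gene, was at 0.569, 0.322, 6.49 and 1.42 rescaled TPM in mice 75, 104, 94 and 100. CRPC tumours had 0.221 to 1.14, and the 10 other ENZR tumours 0.497 to 15.3. The level of mouse 94 was like that of the other ENZR tumours, whose median was 4.74. Over the 4 tumours the log2 difference was 0.61 (95% interval -0.13 to 1.35), and 0.08 without mouse 94, beside 1.81 in the other ENZR (adjusted p = 3.79e-06, limma). PGR, the progesterone receptor gene, was at 0.527, 0.821, 9.09 and 3.02 rescaled TPM, with a log2 difference of 1.06 (SE 0.32, adjusted p by limma = 0.151).

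Other pathways were set against CRPC by lists, and apart from APCDD1 no member of the 30 lists was called. Ribosomal protein genes had a median of -0.20 over 79 genes, beside -0.68 in the other ENZR and -0.71 in ENZS. FAU, which encodes a ribosomal protein fused to a ubiquitin-like part, was at 541, 526, 539 and 639 rescaled TPM, below all 10 CRPC tumours at 672 to 983 (log2 difference -0.44, SE 0.11, adjusted p by limma = 0.0863). Over all genes 0.353% lay below all 10 in this way. In the other ENZR FAU differed from CRPC by -0.34, with 7 of 10 tumours under the lowest CRPC tumour, and in ENZS by -0.37. MHC class I genes had a median of 0.10 over 15, beside 0.61 in the other ENZR and 0.54 in ENZS. The ATF4 targets of amino acid stress had a median of 0.11 over 20, beside 0.54 and 0.53. None of these genes was called in the cycling comparison, where the share over all genes was 0.0434%, so the missing calls say nothing about the lists. Interferon-stimulated genes had a median of 0.03 over 35, and the member with the smallest p, IFITM3, was at 41.3 to 106 rescaled TPM against 98.3 to 190 in CRPC, with mice 75 and 94 below that range.

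ELOVL7, a fatty acid elongase gene, was at 2.03, 3.37, 4.50 and 5.01 rescaled TPM in the 4 tumours and at 7.17 to 37.2 in CRPC. All 4 were below all 10, as were 0.353% of all genes, with a log2 difference of -1.57 (SE 0.38, adjusted p by limma = 0.0762). The gene was called in 3 of 25 alternatives. In the other ENZR ELOVL7 differed from CRPC by -0.66, with 4 of 10 tumours under the lowest CRPC tumour, and in ENZS by 0.18. CDKN2A, the gene of the cell cycle inhibitor p16, was at 4.50, 4.44, 14.5 and 10.7 rescaled TPM. It was under the CRPC range of 14.1 to 21.3 in 3 of the 4, with a log2 difference of -0.99 (SE 0.28). CDKN2A belongs to the G1 control and RB pathway list, a division list tied to the choice of tumours, so its values are a description only. HOXB13, the homeobox factor of posterior prostate identity, was at 39.3, 138, 147 and 148 rescaled TPM, with mouse 75 alone below the CRPC range of 127 to 215 (log2 difference -0.72, SE 0.22, adjusted p by limma = 0.163). MYC, EZH2 and CCND1, which drive growth, silence chromatin and start the cell cycle, differed from CRPC by -0.06, 0.19 and -0.23. EGFR and ERBB2, the growth factor receptors, differed by 0.42 and 0.16, and HMGCS1 of cholesterol synthesis by 0.25. None of these 6 was called, and CCND1 is of the same division list as CDKN2A.

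MALAT1, a nuclear long non-coding RNA, was at 381, 422, 874 and 683 rescaled TPM against 197 to 632 in CRPC (log2 difference 0.73, SE 0.29, adjusted p by limma = 0.299). MALAT1 differed from CRPC by 0.90 in the other ENZR and 0.84 in ENZS. Its part, and that of the lower ribosomal protein values, in the called genes was not tested. In the remaining lists the members with the smallest p were CBX2 of the Polycomb group (0.52), the insulin receptor substrate gene IRS2 (0.75), the clock gene PER1 (0.88), VEGFA of the hypoxia response (0.79) and the proteasome gene PSMA4 (-0.48), as log2 differences from CRPC. All 5 missed the adjusted threshold. The same 5 differed from CRPC by 0.01, 0.12, 0.92, 0.51 and -0.24 in the other ENZR tumours, in that order.

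**Figure D3:**
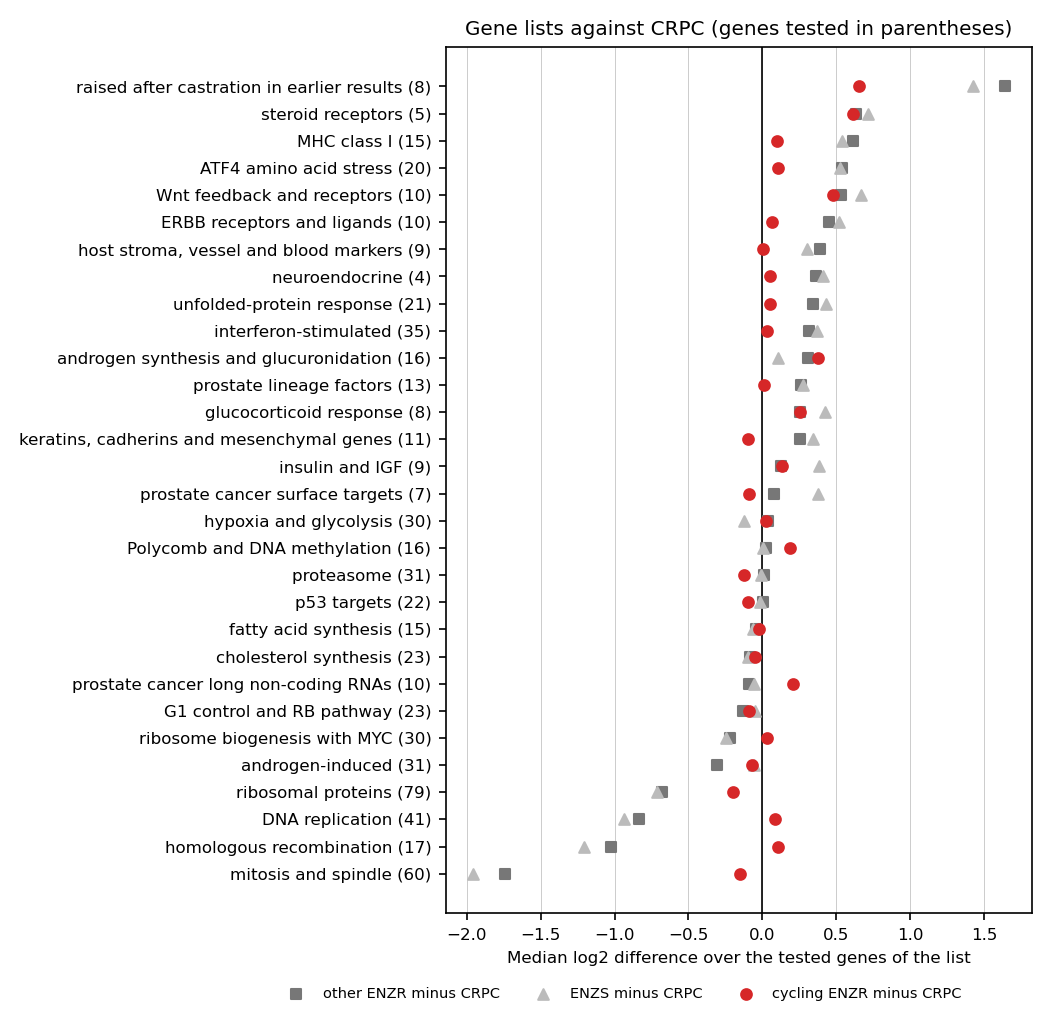
Median log2 difference from CRPC (horizontal axis) over the tested genes of 30 gene lists (rows, number of genes in parentheses) for cycling ENZR, other ENZR and ENZS tumours. The cycling ENZR medians lie between -0.20 and 0.65, while those of the other ENZR run from -1.74 to 1.65. The value of -1.74 is that of mitosis and spindle, and the division lists follow from the choice of tumours. Outside the division lists the lowest median of the other ENZR is -0.68, for ribosomal proteins. The 3 sets share the CRPC tumours.

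Set against the intact PRE-CX tumours, the cycling ENZR tumours differed in many more genes. Of 18423 genes 837 were called (4.54%), 576 higher (3.13%) and 261 lower (1.42%). Of the 31 androgen-induced genes 14 were called lower, with a median of -0.81 beside 0.12 over all genes, and none higher. FKBP5, at 91.8 to 423 rescaled TPM in PRE-CX, fell by 2.19 on the log2 scale (SE 0.36, adjusted p = 1.39e-05), and TMPRSS2 was called at -1.32 (adjusted p = 0.0124, limma). KLK3 and KLK2 differed by -0.19 and -0.51 and were not called. Of the 8 genes chosen as raised after castration 7 were called higher, among them UGT2B17 (5.07), ATP1B1 (4.56), DDC (4.23) and OPRK1 (4.06). These 8 were picked from earlier results of the same data, so their direction against intact tumours was set by the choice and is no independent evidence. APCDD1 rose by 4.23 (adjusted p = 6.17e-08, limma), and all 4 tumours exceeded the PRE-CX range of 0.849 to 3.06 rescaled TPM.

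As a whole-profile description, each tumour was set against the mean of each group by the root mean square of its log2 differences over the 18423 genes, leaving the tumour out of its own group. Mouse 100 was nearest to the CRPC mean at 0.424, mouse 104 at 0.480 and mouse 75 at 0.590. Mouse 94 was nearest to the other ENZR mean at 0.532, with the CRPC mean at 0.551. CRPC tumours themselves lay 0.340 to 0.586 from the mean of the other CRPC tumours, and the 10 other ENZR tumours 0.519 to 0.722. Mice 100, 104 and 94 thus fell inside the CRPC range and mouse 75 just outside it. CRPC mouse 81, itself nearest to PRE-CX, set the upper end of that range, and the next CRPC tumour, mouse 47, was at 0.507. Mice 100 and 104 lay under mouse 47, and mouse 94 only under mouse 81. Every cycling tumour was farther out than the CRPC median of 0.397. The median of the other ENZR tumours, 0.578, was inside the range too, so a place in it does not set the cycling tumours apart. None of the 10 other ENZR tumours had the CRPC mean as its nearest, as 7 were nearest to ENZS and 3 to the mean of the other tumours in their own group. A mean over few tumours is noisier and lies farther, so distances to groups of unequal size are not strictly comparable. The genes used may include some that follow division, which are tied to the choice of tumours.

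**Figure D4:**
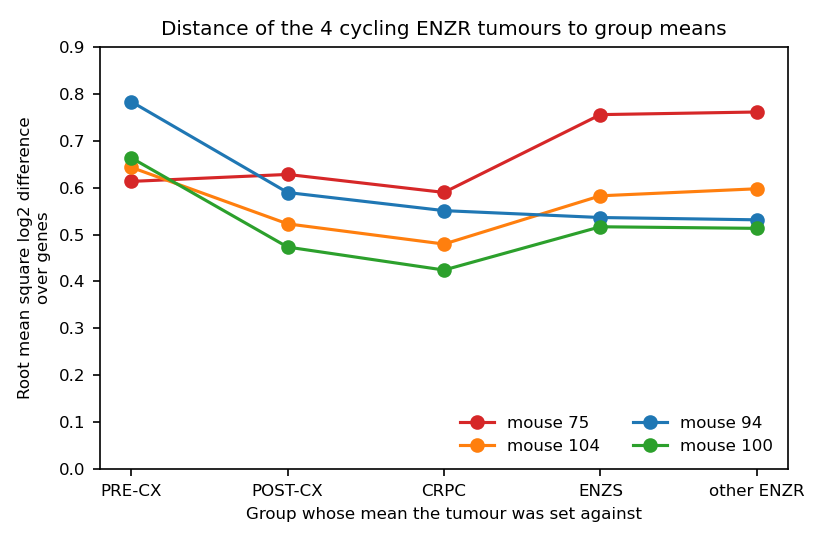
Root mean square log2 difference (vertical axis) of each of the 4 cycling ENZR tumours to the mean of 5 groups (horizontal axis); lines join the values of 1 tumour. Mice 75, 104 and 100 have their lowest value at CRPC (0.590, 0.480 and 0.424), and mouse 94 at the other ENZR (0.532).

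The 4 tumours were not alike. Their pairs differed by 0.585 to 0.774 in the same measure, against a median of 0.542 and a range of 0.424 to 0.743 for the 45 pairs of CRPC tumours. The closest pair was mice 94 and 100 and the farthest mice 75 and 94. Mouse 75 had the highest FKBP5, KLK2 and UGT2B17 and the lowest HOXB13, OPRK1, ATP1B1 and APCDD1 of the 4, and its second nearest group mean was PRE-CX, at 0.613. Mouse 94 had the highest DDC, NR3C1, PGR, ATP1B1 and CCDC14 and the lowest FKBP5. Mouse 104 had the highest KLK3 and APCDD1, with the lowest DDC and AOC1. Mouse 100 had the lowest KLK3 and KLK2.

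Human transcripts made up 90.1% to 94.9% of the TPM sum in the 4 tumours and 77.1% to 97.0% in CRPC, with reads assigned jointly to human and mouse genes. Of 25 stroma, vessel and blood markers 9 passed the filter, with a median difference from CRPC of 0.00, beside 0.39 in the other ENZR and 0.30 in ENZS. Their summed level over all 25 was 19.9 to 94.5 rescaled TPM in the 4 tumours, 26.7 to 111 in CRPC and 52.3 to 102 in the other ENZR, and HBA1, HBA2, DES and ADIPOQ were listed at 0 in every cycling tumour. The depth behind each value is not given by TPM. The labels name no batch.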

How the data were processed

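RNA of 54 LNCaP xenografts was sequenced from poly(A) libraries. The authors trimmed the reads (Trim Galore 0.6.5, after FastQC 0.11.9), aligned them with STAR 2.7.2b to a joint human and mouse reference (GRCh38 and GRCm38), quantified them with RSEM 1.3.3 and kept human genes; versions are from the submitters' processing notes. The deposited values are TPM per gene symbol, whose human part does not sum to 1000000 and which keep no depth. A tumour's values were rescaled to a sum of 1000000, after leaving out the 2 tumours with a sum under 300000 (ENZR mouse 87 and POST-CX mouse 91). Values were set as log2(rescaled TPM + 1), so that differences of low genes are understated, and genes with at least 1 rescaled TPM in at least 4 tumours were kept.

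Groups followed the sample group in the labels, with ENZR split by the division score. The members and the gene lists were chosen with earlier results of these data known. limma 3.58.1 (R 4.3.3, trend option) was fitted to 52 tumours in 6 groups, and p-values were adjusted by Benjamini-Hochberg over 18568 genes; the 4 markers and the 4 division lists were then left out of counts, since the choice of tumours rests on them. Genes outside those lists that follow division are not fully independent of the choice. Intervals of 95% used limma's SE with 46 residual degrees of freedom. Mouse numbers are names and none is shared between groups, so no paired analysis was possible. Named were a panel of 22 genes, the called genes with a mean of at least 5 rescaled TPM in the higher group (at most 10 in each direction), and of each of 30 lists its called members (at most 3) or else the member with the smallest p. Some genes of the panel are not reported here. Alternatives changed the scaling, centring, pseudocount, filter, fitted samples, number of chosen tumours and trend, used the division score as covariate, and left out each tumour of both groups. The fitting was tested on simulated data. Python 3.11.15 and pandas 2.3.3 were used for the tables. Promoters came from RefSeq (GRCh38.p14).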

Additional observations from a re-analysis of the deposited data

Results flagged for a closer look

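For the named genes, 104 groups of 4 or 10 tumours were examined for a tumour far from the others on the log2 scale, and 8 were flagged, where chance flags about 1 in 20 groups. Among the cycling ENZR tumours, HOXB13 in mouse 75 was at 39.3 rescaled TPM with the next at 138, and FAU in mouse 100 was at 639 with the next at 541. Among the CRPC tumours, mouse 81 was apart in 3 genes, with CBX2 at 27.6 (next 16.5), ELOVL7 at 37.2 (next 16.0) and OPRK1 at 11.5 (next 38.5). IRS2 was at 3.47 in CRPC mouse 78 (next 1.56), ACTA2 at 8.07 in CRPC mouse 102 (next 4.34) and PSMB10 at 22.8 in CRPC mouse 107 (next 29.6). No cause was tested.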

How the results depend on the processing

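The number of called genes was 8 as reported, 5 with deposited TPM, 4 with a pseudocount of 5, 18 with the highest 3 ENZR tumours, 26 with the highest 5, 21 with all ENZR tumours and the division score as covariate, and 0 when only the 4 cycling ENZR and 10 CRPC tumours were fitted (1985 at an unadjusted p under 0.05). Leaving out 1 tumour at a time gave 4 to 26 genes. The other settings gave 8 to 11. Of the 8 genes, 5 were still called with deposited TPM, 3 with a pseudocount of 5, 6 with the highest 3, 3 with the highest 5 and 1 with the covariate. The causes were not tested. Over 52 named genes and 25 alternatives, 1242 values stayed on their side of the threshold, 54 calls were lost and 4 were gained, and no called gene changed sign. Of uncalled genes, several changed sign when 1 cycling tumour was left out. Of 750 list medians under the alternatives 7 moved by more than the spread between the 4 tumours and 743 did not, and the number of genes with all 4 tumours below all CRPC went from 65 to 101 with each tumour centred. No paired analysis was possible because the groups share no mouse number. Depth is not known from TPM, and 4 tumours limit the precision, so a missed threshold does not show that a gene was at the CRPC level.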
